A study of Mus musculus with 10 samples.

Results

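The ADAM, ADAMTS and MMP metalloproteases and their TIMP inhibitors were examined in the first pharyngeal arch (PA1) of mouse embryos with and without the transcription factor GRHL2. Members were all rows of the count table whose gene name starts with *Adam*, *Adamts* or *Mmp* followed by a digit, together with *Timp1* to *Timp4*. This gave 80 rows of 22114 genes, covering 79 symbols because *Mmp27* is listed on 2 identifiers. Of these rows, 50 had at least 10 counts in at least 1 arch and were tested, among 14561 genes tested in all. PA1 was dissected at E10.5 from 5 wild-type (*Grhl2*+/+, WT) and 5 *Grhl2*-/- (KO) embryos on a C57BL/6 background, and each arch was sequenced as its own library. All 10 embryos were male. The null allele is constitutive, so every tissue of a *Grhl2*-/- embryo carries it, and no other allele or treatment is listed for either group. PA1 holds surface epithelium, in which GRHL2 acts, around a mesenchymal core, and the whole arch was sequenced. In such bulk samples, fewer cells of a type and less RNA per cell cannot be told apart.

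These proteases are zinc-dependent enzymes that cut proteins at the cell surface and in the extracellular matrix. ADAMs are mostly membrane-anchored and release the outer parts of growth factors, receptors and adhesion molecules. ADAMTS enzymes are secreted, bind matrix through thrombospondin repeats, and include the proteoglycanases, which cleave versican and aggrecan, and the procollagen N-proteinases. MMPs degrade collagens and other matrix proteins, TIMPs block the active site of these enzymes, and cleavage of versican by ADAMTS enzymes is known to be needed for palate closure in the mouse.

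The feature that makes a member an active protease is its zinc-binding site, in which 3 histidines, at positions 1, 5 and 11 of 11 residues, hold the metal. The site was found in translated GENCODE transcripts of 62 members. It was absent from 13 ADAM genes, among them *Adam11*, *Adam22* and *Adam23*, and from the 4 TIMPs, which are inhibitors. One of the 2 *Mmp27* rows was not matched to that annotation. Position 8 was glycine in 56 of the 62 members, asparagine in *Adamts1*, *Adamts4*, *Adamts9*, *Adamts15* and *Adamts20*, and serine in *Adamts8*. These last 6 are all proteoglycanases of the ADAMTS family, and *Adamts5* was the only proteoglycanase with glycine. The coding stretches of the 4 members called at the study's threshold, and of *Mmp14* and *Mmp9*, are shown because the results turn on these genes. Each runs 5′ to 3′ on the coding strand of GRCm38, and capitals mark the codons of the 3 zinc-binding histidines.
Adam9 (chr8:24990326-24990358, minus strand): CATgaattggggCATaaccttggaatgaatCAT
Adamts12 (chr15:11241529-11255564, plus strand, across exons): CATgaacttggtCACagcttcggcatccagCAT
Adamts15 (chr9:30911255-30911690, minus strand, across exons): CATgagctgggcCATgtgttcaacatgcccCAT
Adamts4 (chr1:171253210-171253915, plus strand, across exons): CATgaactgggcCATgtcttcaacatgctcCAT
Mmp14 (chr14:54437627-54437659, plus strand): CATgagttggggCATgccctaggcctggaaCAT
Mmp9 (chr2:164951133-164951165, plus strand): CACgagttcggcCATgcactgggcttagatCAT

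Between 22188454 and 28801378 reads per library were counted on genes, so that a floor of 3 reads corresponds to 0.104 to 0.136 CPM (counts scaled to a common library size after TMM normalization). Floors and counting intervals describe counting error alone. Members took 0.128 to 0.142% of the counts of wild-type arches and 0.140 to 0.157% of those of *Grhl2*-/- arches. *Grhl2* itself fell from 35.6 ± 3.29 to 4.53 ± 1.45 CPM (SD, n = 5 each; limma-voom FDR 2.67e-06), which checks the labels. Arches of one genotype were not copies of each other, with a chi-square per gene of 7.05 to 25.5 over the 20 pairs. The embryo is the replicate. The sum of 7 surface epithelium markers was 276.4 to 379.2 CPM in wild-type arches and 154.7 to 230.9 CPM in *Grhl2*-/- arches, without overlap. Of the 7, *Epcam*, *Cdh1*, *Cldn6* and *Krt5* were lower at FDR below 0.01, whereas *Krt8*, *Krt18* and *Trp63* overlapped, with log2 differences of -0.40, -0.07 and -0.24 and FDR of 0.203, 0.848 and 0.0566 (limma-voom). The sum of 6 arch mesenchyme markers was 1240 to 1599 CPM and 1029 to 1269 CPM, and *Msx1* (FDR 0.00595) and *Twist1* (FDR 0.0189) were lower, each without overlap. The sum of 8 sensory neuron markers set 2 libraries apart: it was 42.5 CPM in wild-type 1-566 and 38.2 CPM in wild-type 1-568, 456.9 to 736.9 CPM in the other wild-type arches and 246.7 to 924.2 CPM in the *Grhl2*-/- arches. The labels do not say what the number in an arch's name stands for.

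At a Benjamini-Hochberg false discovery rate (FDR) below 0.01, the study's threshold, 4 of the 50 members tested were higher in *Grhl2*-/- PA1 and 0 were lower (limma-voom). The 4 are *Adam9*, *Adamts12*, *Adamts15* and *Adamts4*, and they rose between 1.25-fold and 1.44-fold. Over all genes tested, 0.879% were higher and 1.09% were lower. edgeR's quasi-likelihood test also gave 4 higher and 0 lower, with 0.975% and 1.11% of all genes. DESeq2 gave 8 and 1, with 3.57% and 3.80% of all genes. At an unadjusted p below 0.05, limma-voom gave 14 higher and 5 lower members, against 14.2% and 14.3% of all genes. At FDR below 0.05, 8 members were higher and 2 were lower, against 3.84% and 3.87% of all genes. In 7 members all 5 *Grhl2*-/- arches lay above all 5 wild-type arches and in 1 they lay below, against 4.22% and 4.66% of all genes. The counts include 4 members that reached 10 counts in 1 genotype only, *Adam28* and *Mmp19* in wild-type and *Adam2* and *Adamts16* in *Grhl2*-/- arches; of these, *Adam28* is 1 of the 2 lower members and the 1 below all wild-type arches. The median log2 fold change was 0.14 over the members and 0.01 over all genes tested, and 33 of 50 members had a positive value. When 1 arch at a time was left out, *Adamts5* stayed below FDR 0.05 in 7 of 10 fits, *Mmp14* in 5, and *Adam22*, *Mmp9* and *Adamts17* in 4 each (limma-voom). Without the 2 wild-type libraries low in sensory neuron markers, an alternative added after the data were seen, 0 members were called in either direction at FDR below 0.01 (10 higher and 2 lower at an unadjusted p below 0.05, against 7.53% and 10.6% of all genes), and 0.131% and 0.620% of all genes were called at FDR below 0.01. All 4 were then above that threshold, at FDR 0.0388 for *Adam9*, 0.0380 for *Adamts12*, 0.0744 for *Adamts15* and 0.0881 for *Adamts4* (limma-voom), with log2 fold changes of 0.28, 0.50, 0.39 and 0.30.

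**Figure D1:**
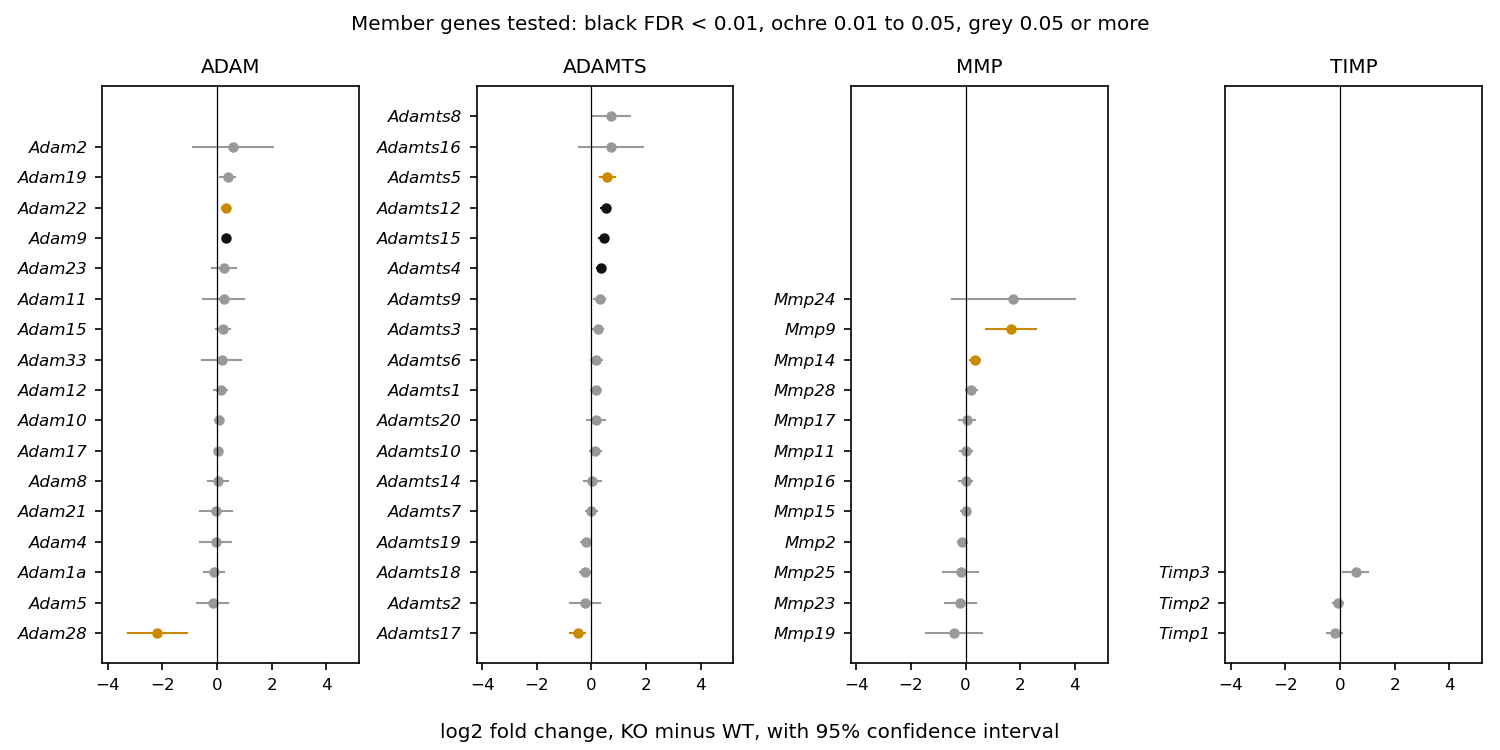
Log2 fold change (KO minus WT, x axis) of the 50 members tested, 1 panel per family, with points for the limma-voom estimate and lines for its 95% confidence interval. The 4 black points are *Adam9*, *Adamts12*, *Adamts15* and *Adamts4*, all to the right of 0, and the widest intervals belong to members with few reads or, for *Mmp24*, with levels that differ among arches of one genotype.

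The ADAM family had 17 members tested, 11 with the zinc-binding site and 6 without it. Among those with the site, 1 was higher and 0 were lower at FDR below 0.01, against 0.879% and 1.09% of all genes. At FDR below 0.05, 1 was higher and 1 lower, against 3.84% and 3.87%. The 1 lower was *Adam28*, which reached 10 counts in wild-type arches only. *Adam9* encodes a membrane-anchored protease that sheds cell-surface proteins. Its levels were 51.0, 53.8, 52.8, 55.0 and 52.4 CPM in wild-type arches 1-566, 5-566, 1-568, 8-568 and 3-588, and 61.0, 67.9, 65.3, 66.8 and 69.7 CPM in *Grhl2*-/- arches 2-566, 2-568, 1-588, 3-604 and 1-628. This order of arches is used for every list of values that follows. The lowest *Grhl2*-/- arch lay above the highest wild-type arch. *Adam9* (ENSMUSG00000031555, chr8:24949611-25016927, minus strand) rose 1.25-fold, from 53.0 ± 1.53 to 66.1 ± 3.28 CPM (SD, n = 5), with a log2 fold change of 0.32 (SE 0.0437, 95% interval 0.22 to 0.41) and an FDR of 0.00166 in limma-voom. It stayed below FDR 0.01 when any single arch was left out, with values from 0.29 to 0.35.

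The main ectodomain sheddases of this family did not pass either threshold. *Adam10*, which releases Notch receptors and cadherins from the membrane, averaged 109 ± 8.35 CPM (wild-type) and 115 ± 10.3 CPM (*Grhl2*-/-), a log2 difference of 0.08 with an interval from -0.08 to 0.23 (limma-voom FDR 0.495). *Adam17*, which releases tumour necrosis factor and ligands of the EGF receptor, was at 108 ± 2.34 and 112 ± 6.43 CPM, a log2 difference of 0.04 with an interval from -0.05 to 0.14 (FDR 0.557). For neither gene does the test show that the genotypes are equal, but log2 differences above 0.23 for *Adam10* and 0.14 for *Adam17* lay outside the intervals. *Adam19*, a protease of developing heart and mesenchyme, was at 46.5 ± 7.68 and 60.7 ± 9.69 CPM and did not pass either threshold (log2 0.38, FDR 0.0867).

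*Adam28*, a protease best known from lymphocytes, was the member with the most negative fold change. Wild-type arches held 4, 10, 6, 10 and 7 of its reads, and *Grhl2*-/- arches held 3, 0, 2, 2 and 1. Every *Grhl2*-/- arch was at or under 3 reads and below every wild-type arch. Summed over arches, 37 against 8 reads give a ratio of 4.84 once scaled by normalized library size, with a 95% counting interval from 2.22 to 12.0. It reached 10 counts only in wild-type 5-566 and 8-568, the genotype in which it was higher, so the filter itself favoured a lower value in *Grhl2*-/- arches. Its fitted values (log2 fold change -2.18, interval -3.26 to -1.10, limma-voom FDR 0.0257) are therefore given as a description. At this depth, neither genotype was far above the floor.

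Of the 6 tested ADAM genes without the zinc-binding site, 1 was higher at FDR below 0.05 and 0 at FDR below 0.01, against 3.84% and 0.879% of all genes. Their median log2 fold change was 0.25. *Adam22*, whose product lacks protease activity and is a receptor for the secreted protein LGI1 in the nervous system, measured 23.9, 27.3, 24.9, 24.6 and 22.6 CPM in wild-type and 31.8, 33.4, 27.5, 28.4 and 33.6 CPM in *Grhl2*-/- arches. The groups were separated, but only just: the highest wild-type arch was at 27.3 CPM and the lowest *Grhl2*-/- arch at 27.5 CPM. Its log2 fold change was 0.32 (interval 0.16 to 0.49, limma-voom FDR 0.0257), and DESeq2 gave an FDR of 0.00140. With the mean log2 CPM of the sensory neuron markers as a covariate it had a log2 fold change of 0.31 and an FDR of 0.0747, and without wild-type 1-566 and 1-568 these were 0.30 and 0.152 (limma-voom). *Adam11*, a related neural gene, measured 9.54, 25.5, 9.74, 21.6 and 17.1 CPM in wild-type and 25.0, 12.4, 10.7, 24.2 and 28.2 CPM in *Grhl2*-/- arches. Its spread within a genotype was larger than the difference between genotypes (log2 0.25, FDR 0.675).

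The ADAMTS family had 18 of its 19 members tested. At FDR below 0.01, 3 were higher and 0 were lower, against 0.879% and 1.09% of all genes. By role, the 3 were 2 of 7 proteoglycanases, 0 of 3 procollagen N-proteinases and 1 of the other 8. All 7 proteoglycanases had a positive log2 fold change, from 0.16 to 0.73 with a median of 0.34, whereas 7673 of the 14561 genes tested were positive with a median of 0.01. At FDR below 0.05, 3 of the 7 were higher, against 3.84% of all genes, and DESeq2 called 4 of them at FDR below 0.01, against 3.57%. Without wild-type 1-566 and 1-568, limma-voom called 0 of the 7 at FDR below 0.01, where 0.131% of all genes were higher and 0.620% lower.

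*Adamts15*, a proteoglycanase, measured 20.3, 23.2, 19.3, 20.2 and 21.3 CPM in wild-type and 30.8, 32.2, 28.5, 25.7 and 26.1 CPM in *Grhl2*-/- arches, without overlap. It rose 1.37-fold, from 20.9 ± 1.46 to 28.7 ± 2.86 CPM (log2 0.46, interval 0.29 to 0.63, limma-voom FDR 0.00593). Its call held in 3 of the 10 fits that left out 1 arch, those without wild-type 5-566, *Grhl2*-/- 3-604 or *Grhl2*-/- 1-628, and the FDR over the 10 fits ran from 0.00694 to 0.0201 (limma-voom). *Adamts4* encodes an aggrecan-cleaving enzyme. It measured 18.1, 18.2, 16.7, 19.3 and 17.5 CPM in wild-type and 22.0, 23.7, 21.8, 24.8 and 21.5 CPM in *Grhl2*-/- arches, again without overlap. It rose 1.27-fold, from 17.9 ± 0.956 to 22.8 ± 1.39 CPM (log2 0.34, interval 0.21 to 0.48, limma-voom FDR 0.00682). Its call held in 2 of the 10 such fits, without *Grhl2*-/- 2-566 or *Grhl2*-/- 1-588, with FDR from 0.00975 to 0.0241 (limma-voom).

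*Adamts5*, the other main aggrecan-cleaving enzyme, was at 0.412 CPM per kb of exon in wild-type arches, below the other proteoglycanases except *Adamts8*, at 0.100. It measured 3.45, 5.31, 4.03, 4.12 and 5.33 CPM in wild-type and 7.20, 6.48, 6.24, 7.38 and 6.00 CPM in *Grhl2*-/- arches. The groups did not overlap. In limma-voom it passed FDR 0.05 but not 0.01 (log2 0.58, interval 0.30 to 0.86, FDR 0.0215), and in DESeq2 it passed 0.01 (FDR 0.00210). It was above FDR 0.05 with a sensory neuron covariate (log2 0.44, FDR 0.0681) and without wild-type 1-566 and 1-568 (log2 0.42, FDR 0.157; limma-voom). *Adamts9*, which with *Adamts20* cleaves versican in the palatal shelves, was at 79.5 ± 7.30 and 99.0 ± 12.2 CPM. It missed both thresholds in limma-voom (log2 0.31, FDR 0.0566), while DESeq2 gave an FDR of 0.00818 and edgeR 0.0474. Of the 10 limma-voom fits that left out 1 arch, 1 was below FDR 0.05, at 0.00935 without *Grhl2*-/- 2-566. The limma-voom FDR of *Adamts9* was 0.0602 with the sensory neuron covariate and 0.151 without wild-type 1-566 and 1-568. *Adamts1*, *Adamts20* and *Adamts8* had log2 differences of 0.17, 0.16 and 0.73 with FDR of 0.229, 0.512 and 0.142 (limma-voom). *Adamts8* was scarce, with means of 0.463 and 0.778 CPM.

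*Adamts12*, which cleaves cartilage oligomeric matrix protein, had the largest fold change of the 4 members called. It measured 14.9, 16.8, 16.1, 15.6 and 16.0 CPM in wild-type and 21.6, 27.1, 21.6, 21.2 and 23.9 CPM in *Grhl2*-/- arches. No arch of one genotype reached the range of the other. *Adamts12* (ENSMUSG00000047497, chr15:11064790-11349231, plus strand) rose 1.44-fold, from 15.9 ± 0.705 to 23.1 ± 2.49 CPM (log2 0.53, SE 0.0770, interval 0.36 to 0.70, limma-voom FDR 0.00228). It stayed below FDR 0.01 when any single arch was left out, with log2 fold changes from 0.47 to 0.55.

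*Adamts17*, an enzyme linked to fibrillin microfibrils, went the other way at the looser threshold. It measured 17.2, 16.5, 16.0, 15.1 and 11.9 CPM in wild-type and 12.4, 10.7, 8.77, 9.34 and 12.5 CPM in *Grhl2*-/- arches. The groups overlapped, because wild-type 3-588 lay below *Grhl2*-/- 2-566 and 1-628 (log2 -0.50, interval -0.79 to -0.22, limma-voom FDR 0.0372). DESeq2 gave *Adamts17* an FDR of 0.00247, and it was the 1 member called lower at FDR below 0.01 by DESeq2. With the sensory neuron covariate its log2 fold change was -0.47 (FDR 0.0934), and without wild-type 1-566 and 1-568 it was -0.44 (FDR 0.173, limma-voom). The procollagen N-proteinases *Adamts2*, *Adamts3* and *Adamts14*, which trim fibrillar procollagens, had log2 differences of -0.24, 0.24 and 0.03 with FDR of 0.557, 0.117 and 0.899 (limma-voom).

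**Figure D2:**
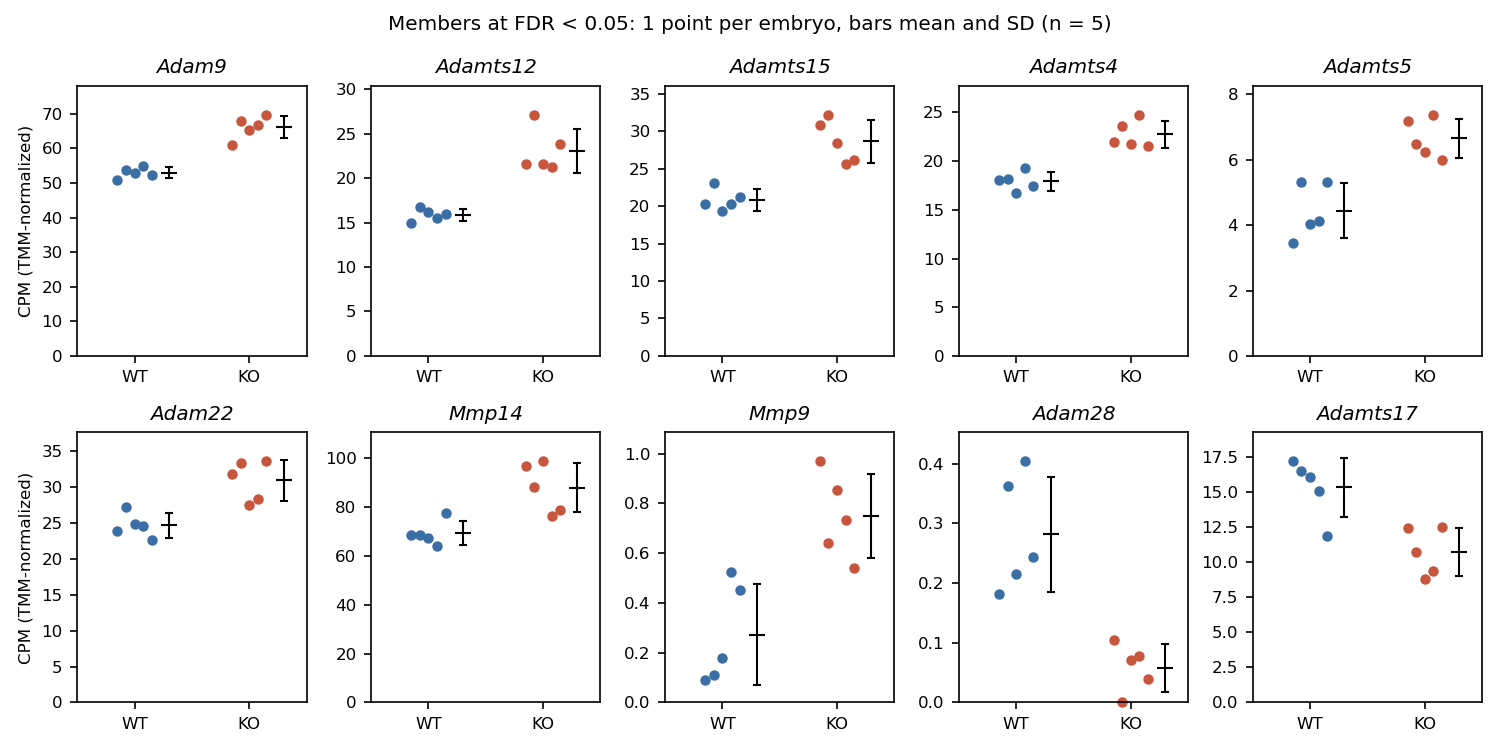
TMM-normalized CPM (y axis, each panel from 0 on its own scale) of the 10 members at FDR below 0.05, 1 point per embryo, with a bar for the mean and SD of 5 embryos per genotype. *Adam9*, *Adamts12*, *Adamts15*, *Adamts4*, *Adamts5*, *Adam22* and *Mmp9* show *Grhl2*-/- points above all wild-type points, *Adam28* shows them below, and *Mmp14* and *Adamts17* overlap.

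The MMP family had 12 of 24 rows tested. At FDR below 0.01, limma-voom (genotype alone) called 0 in either direction, against 0.879% of all genes higher and 1.09% lower. edgeR also called 0 (0.975% and 1.11% of all genes), while DESeq2 called *Mmp14* higher (3.57%). At an unadjusted p below 0.05 in limma-voom, 3 were higher and 1 lower, against 14.2% and 14.3% of all genes. At FDR below 0.05 in limma-voom, 2 were higher and 0 lower, against 3.84% and 3.87%. The median log2 fold change over the 12 was 0.00. *Mmp14* encodes a membrane-type MMP that cleaves collagen and activates pro-MMP2 at the cell surface. It measured 68.5, 68.7, 67.4, 64.1 and 77.5 CPM in wild-type and 97.1, 88.5, 98.8, 76.5 and 79.0 CPM in *Grhl2*-/- arches. One *Grhl2*-/- arch, 3-604, lay just below the highest wild-type arch, 3-588. Its log2 fold change was 0.34 (interval 0.17 to 0.51, limma-voom FDR 0.0279), and it was 0.34 with the sensory neuron covariate (FDR 0.0641) and 0.31 without wild-type 1-566 and 1-568 (FDR 0.166). *Mmp9*, gelatinase B, was scarce, with 2, 3, 5, 13 and 13 reads in wild-type and 28, 18, 24, 19 and 14 reads in *Grhl2*-/- arches. In CPM the genotypes did not overlap, although the nearest values were 0.525 and 0.542 CPM. Over all arches, 103 against 36 reads give a ratio of 2.74 once scaled by normalized library size, with a 95% counting interval from 1.86 to 4.12. The log2 fold change was 1.66 (interval 0.76 to 2.56, limma-voom FDR 0.0342). edgeR gave an FDR of 0.0540. With the sensory neuron covariate the log2 fold change was 1.40 (FDR 0.111), and without wild-type 1-566 and 1-568, which held 2 and 5 of its reads, it was 1.24 (FDR 0.212, limma-voom).

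*Mmp2*, gelatinase A, was the most abundant member and did not pass either threshold. Its means were 179 ± 12.8 CPM (wild-type) and 161 ± 10.1 CPM (*Grhl2*-/-), SD over 5 arches (log2 -0.15, interval -0.27 to -0.02, limma-voom FDR 0.118). The membrane-type enzymes *Mmp15* and *Mmp16* had log2 differences of -0.01 and 0.00 with FDR of 0.971 and 0.997. *Mmp24*, a membrane-type enzyme of neurons, measured 0.0454, 4.62, 0.108, 3.35 and 1.81 CPM in wild-type and 5.81, 1.60, 0.927, 3.44 and 4.53 CPM in *Grhl2*-/- arches. Its interval ran from -0.51 to 4.0 around a log2 fold change of 1.74 (FDR 0.283), the widest interval among the 50 members. The low values were those of wild-type 1-566 and 1-568, the libraries with the lowest sensory neuron markers, and both were at or under the floor.

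Of the inhibitors, 3 TIMP genes were tested and 0 were called at either threshold by limma-voom, or at FDR below 0.01 by edgeR or DESeq2. At an unadjusted p below 0.05 in limma-voom, 1 was higher, against 14.2% of all genes. *Timp3*, the TIMP that binds to the matrix and also inhibits ADAM17, measured 54.9, 89.2, 52.3, 76.4 and 71.2 CPM in wild-type and 113, 93.0, 61.5, 114 and 140 CPM in *Grhl2*-/- arches. The groups overlapped through *Grhl2*-/- 1-588 (log2 0.57, interval 0.11 to 1.03, limma-voom FDR 0.110). Without that arch its FDR was 0.0163 (log2 0.74), and with quality weights 0.0464 (log2 0.63). Its log2 difference was 0.31 with the sensory neuron covariate (FDR 0.277) and 0.34 without wild-type 1-566 and 1-568 (FDR 0.443, limma-voom). *Syn3*, which lies antisense to *Timp3* and shares exon sequence with it, had a log2 difference of 0.21 (FDR 0.337). *Timp2*, which takes part in the activation of pro-MMP2 by MMP14, was at 66.3 ± 8.90 and 62.9 ± 4.86 CPM (log2 -0.06, FDR 0.672). *Timp1* was at 5.81 ± 0.124 and 5.13 ± 0.946 CPM (log2 -0.20, FDR 0.320), with a coefficient of variation of 2.13% over wild-type and 18.5% over *Grhl2*-/- arches. *Timp4* had at most 1 read in any arch and was not tested.

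Levels between genes were compared per kilobase of exon (CPM per kb, mean of 5 wild-type arches). *Mmp2* led at 53.0 ± 3.78, followed by *Adam10* at 22.1 ± 1.70, *Timp2* at 17.0 ± 2.28, *Adam17* at 15.1 ± 0.327, *Adam9* at 12.9 ± 0.371, *Adamts1* at 12.4 ± 0.713 and *Mmp14* at 11.6 ± 0.830. *Mmp2* and *Adam10* stood clear of their neighbours, whereas *Timp2* lay within its SD of *Adam17*, *Adam9* within the SD of *Adamts1*, and *Adamts1* within the SD of *Mmp14*. *Mmp15* followed at 9.81 ± 0.792 and *Adamts10* at 8.55 ± 1.0. In *Grhl2*-/- arches, *Adam9* at 16.1 CPM per kb was above *Adam17* at 15.6, and *Mmp14* at 14.8 was above *Adamts1* at 14.0, each by less than the SD over arches. Summed per family, levels were 69.5 in wild-type and 78.3 in *Grhl2*-/- arches for ADAM, 50.6 and 56.8 for ADAMTS, 89.9 and 88.1 for MMP, and 32.0 and 34.7 for TIMP.

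**Figure D3:**
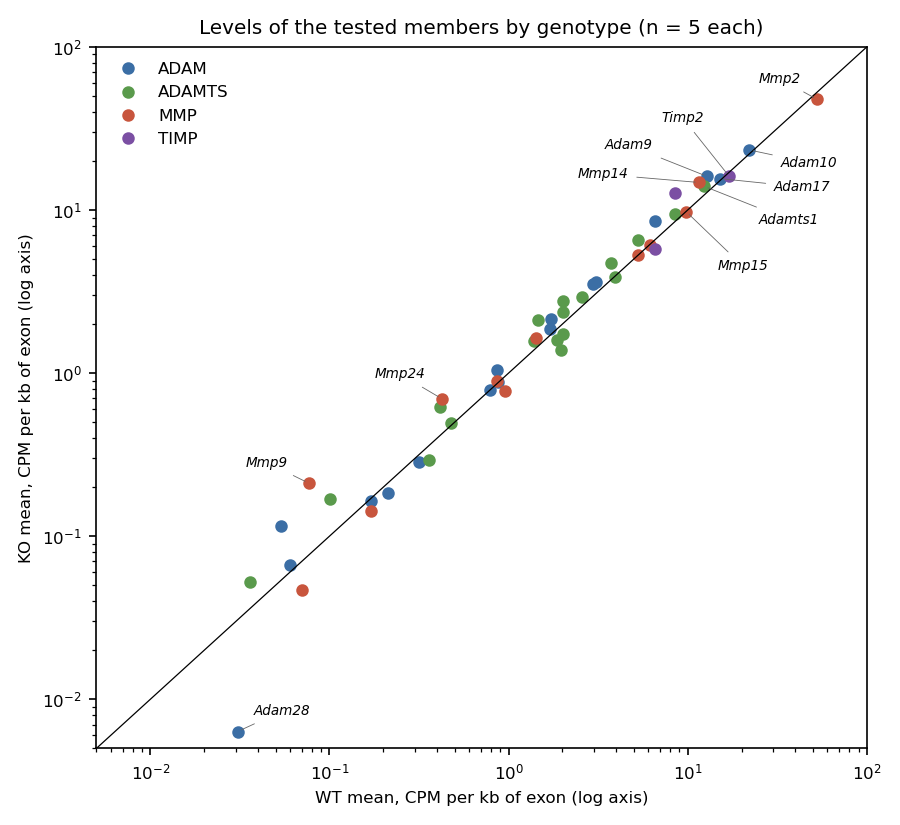
Mean level of each of the 50 members tested in WT (x axis) and KO (y axis) arches, in CPM per kb of exon on log axes, with a line of equal level. Points span from *Adam28* at the lower left to *Mmp2* at 53.0 in WT at the upper right, and most lie close to the line.

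The 30 rows not tested, of 29 symbols, had at most 6 reads in any arch, and 18 of them had 0 reads in every arch. They were 16 ADAM genes, several of which are known for expression in testis, 12 MMP rows, *Adamts13* and *Timp4*. Of the MMP rows, 10 lie on chromosome 9, which holds the collagenase and stromelysin cluster with *Mmp3*, *Mmp8* and *Mmp13*. At this depth a level under the floor was not detectable.

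The members were also set beside markers of other cells. *Mmp24* and *Adam11* were lowest in the 2 wild-type arches with the fewest sensory neuron markers, and *Timp3* was lowest there too. *Adam9* was at 51.0 and 52.8 CPM in those arches and 52.4 to 55.0 CPM in the other wild-type arches. With the mean of the sensory neuron markers as a covariate, *Adam9* and *Adamts12* stayed below FDR 0.01, at 0.00748 and 0.00733, and *Adamts15* and *Adamts4* did not, at 0.0199 and 0.0282 (limma-voom). The log2 fold changes in that fit were 0.31, 0.53, 0.42 and 0.32, against 0.32, 0.53, 0.46 and 0.34 without the covariate. As given above, none of the 4 was below FDR 0.01 without those 2 arches (limma-voom, 0.0380 to 0.0881). The sum of 6 endothelial markers was 330.3 to 371.3 CPM in wild-type and 366.9 to 426.4 CPM in *Grhl2*-/- arches. All 6 had a positive log2 fold change, and *Pecam1* (0.33, FDR 0.0257) and *Kdr* (0.34, FDR 0.0305) passed FDR 0.05 in limma-voom. The sum of 6 macrophage markers was 20.9 to 30.1 and 15.3 to 44.4 CPM, and that of 6 glial markers was 46.1 to 200.8 and 77.4 to 228.7 CPM. The sum of 5 erythroid markers was 3627 to 6162 and 2855 to 3862 CPM, with a median log2 fold change of -0.33 and 0 called at either threshold. The part of epithelial, mesenchymal, endothelial, erythroid and neural cell numbers in the differences between genotypes was not tested.

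**Figure D4:**
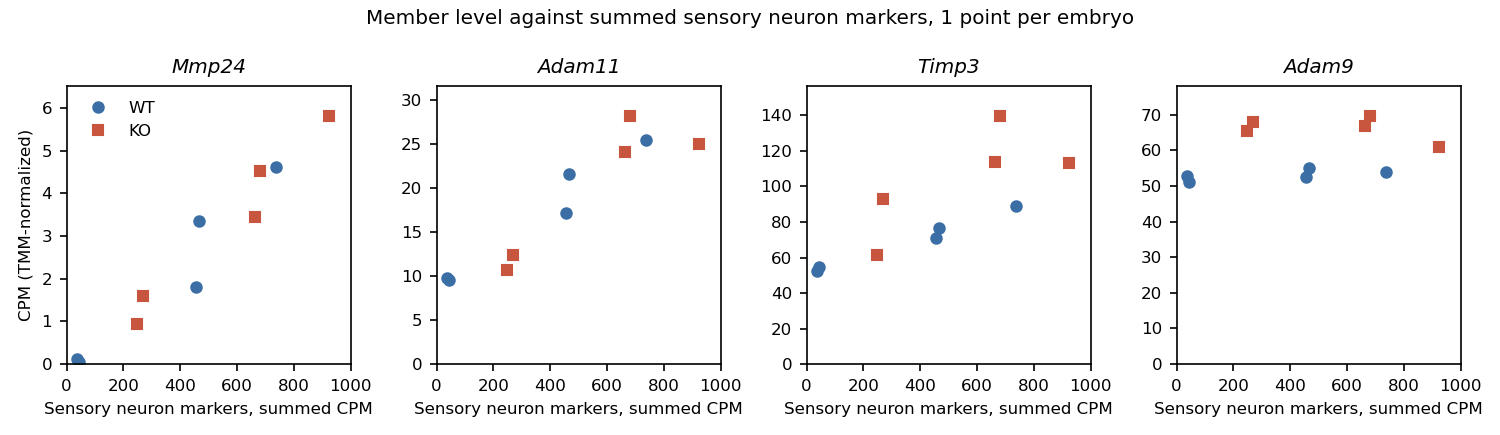
CPM of *Mmp24*, *Adam11*, *Timp3* and *Adam9* (y axis) against the summed CPM of 8 sensory neuron markers (x axis), 1 point per embryo, circles for WT and squares for KO. The first 3 genes are lowest in the 2 WT arches at 42.5 and 38.2 CPM of markers, whereas all KO points of *Adam9* lie above all WT points. No KO arch has markers as low as those 2 WT arches.

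Further genes of the pathway were described in the same fit. Of 22 genes that process, carry or restrain these proteases, such as propeptide convertases, iRhoms and tetraspanins, 21 were tested. At FDR below 0.01, limma-voom and edgeR called 0, and DESeq2 called 1 higher, against 3.57% of all genes. At an unadjusted p below 0.05 in limma-voom, 7 were higher and 1 lower, against 14.2% and 14.3% of all genes. *Lrp1*, an endocytic receptor that clears secreted proteases, was higher at FDR below 0.05 (399 ± 53.5 and 540 ± 83.5 CPM, log2 0.43, FDR 0.0420, limma-voom; without the 2 wild-type libraries low in neuron markers, log2 0.44 and FDR 0.125). *Reck*, a membrane inhibitor of MMPs, had a log2 difference of 0.18 (FDR 0.175), and the median of the set was 0.06. Of 7 ADAMTS-like genes, which share the matrix-binding domains of ADAMTS enzymes but have no protease domain, limma-voom and edgeR called 0 at FDR below 0.01. DESeq2 called 2 higher, against 3.57% of all genes. At an unadjusted p below 0.05 in limma-voom, 4 were higher, against 14.2% of all genes. *Thsd4*, whose product binds fibrillin, passed FDR 0.05 (15.9 ± 2.45 and 25.4 ± 4.24 CPM, log2 0.67, FDR 0.0113, limma-voom). Without the same 2 libraries it had a log2 fold change of 0.64 and an FDR of 0.0534. In *Adamtsl1*, *Adamtsl4* and *Thsd4* all *Grhl2*-/- arches lay above all wild-type arches, as in 4.22% of all genes. The median of these 7 genes was 0.67.

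Of 25 substrates, 21 were tested, and 2 were higher and 1 was lower at FDR below 0.01, against 0.879% and 1.09% of all genes. The counts were 1 and 1 by edgeR (0.975% and 1.11% of all genes) and 2 and 1 by DESeq2 (3.57% and 3.80%). In limma-voom without the 2 wild-type libraries low in neuron markers they were 1 and 1 (0.131% and 0.620%). At an unadjusted p below 0.05, 8 were higher and 1 was lower, against 14.2% and 14.3% of all genes. *Cdh1*, E-cadherin, which ADAM10 cleaves, fell from 44.2 ± 6.30 to 8.16 ± 2.45 CPM (log2 -2.47, limma-voom FDR 1.66e-05). *Cdh2*, N-cadherin, rose from 89.9 ± 12.9 to 141 ± 9.0 CPM (log2 0.65, FDR 0.00111). *Jag1*, a Notch ligand, rose from 65.9 ± 9.09 to 91.0 ± 5.83 CPM (log2 0.47, FDR 0.00986). The call of *Jag1* held in 2 of the 10 fits that left out 1 arch, those without wild-type 1-566 or 5-566, with FDR from 0.00748 to 0.0299, and without both neuron-poor libraries it had a log2 fold change of 0.34 and an FDR of 0.0288 (limma-voom). *Vcan*, versican, the main substrate of the proteoglycanases, had a log2 difference of 0.09 (interval -0.11 to 0.29, FDR 0.555). The median of the set was 0.30.

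The recognition sequence of GRHL factors was looked for in the RefSeq promoter windows of GRCm38.p6, which span 300 bases around the start. The letters AACCGGTT, which read the same on both strands, occurred in 0 of 54 windows of 49 member symbols, 0 of them in the 31 windows of the 28 tested symbols that had one. They occurred in 48 of all 32851 windows, or 0.146%. No match says only that these letters are not in these windows.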

How the data were processed

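Counts per gene of stranded, ribosomal RNA-depleted total RNA libraries were deposited without normalization by the authors, who aligned reads to GRCm38 with STAR and counted them with featureCounts. Their submitters' notes also name edgeR 3.18.1 and limma 3.32.7. A second deposited table holds their own comparison and was not used. Members and gene lists were chosen with earlier results of these data known. Genes reaching 10 counts in any of the 10 arches were normalized by TMM and tested with voom, lmFit and eBayes (limma 3.58.1, edgeR 4.0.16, R 4.3.3), with genotype as the only term, Benjamini-Hochberg adjustment over 14561 genes and FDR below 0.01. Alternatives included DESeq2 1.42.0, edgeR's quasi-likelihood test, other scalings, filters and weights, a replicate block, a sensory neuron covariate, FDR 0.05 and leaving out arches. The method was tested on simulated counts in which the changed genes had larger fold changes than the called members. They also had more reads on average than *Adam28* or *Mmp9*, so smaller changes and scarcer genes were not covered. Named members are those below FDR 0.05, the TIMPs, *Adam10*, *Adam17*, *Mmp2*, *Mmp9*, *Mmp14*, the 3 highest per length in each protease family and those whose groups did not overlap. *Adamts3*, *Adamts2*, *Adamts14*, *Adamts20*, *Adamts8*, *Adam11*, *Adam19*, *Mmp16*, *Mmp24* and the pathway genes were added after their values were seen. Positions, exon lengths and coding sequences are from GENCODE M21 on GRCm38. A search for the zinc site with glycine fixed at position 8 missed 6 ADAMTS genes and was widened to the 3 histidines. Depth was 22188454 to 28801378 counts per arch. The values of 1 other gene looked at beside the members are left out.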

Additional observations from a re-analysis of the deposited data

Results flagged for a closer look

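Values were screened for an arch far from the others of its genotype, in 40 groups of 5 arches, of which chance flags about 2. In 1 group an arch stood apart: *Adam10* in *Grhl2*-/- 1-588 was at 6.59 log2 CPM (2708 reads), the next *Grhl2*-/- arch was at 6.88, and this gap was 0.861 of the range of the genotype. Without this arch the log2 difference between genotypes moved from 0.08 to 0.13 (limma-voom FDR 0.113). The cause was not tested.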

How the results depend on the processing

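The number of members called higher at FDR below 0.01 was 4 and lower 0. It was 4 and 0 with edgeR, scaling by library size alone or by median of ratios, quality weights and a minimum of 10 counts in 5 samples, and 3 and 0 without a filter. DESeq2 gave 8 and 1 (3.57% and 3.80% of all genes), FDR below 0.05 gave 8 and 2 (3.84% and 3.87%), and the sensory neuron covariate gave 2 and 0 (0.508% and 0.858%). With the label number as a replicate block, 2 and 0 were called (0.412% and 0.474% of all genes), *Adamts15* (FDR 0.00918) and *Mmp14* (FDR 0.00321), while *Adam9*, *Adamts12* and *Adamts4* were at 0.0148, 0.0140 and 0.0309 (limma-voom). The block also left *Adamts5*, *Mmp9* and *Adam28* above FDR 0.05, at 0.0824, 0.103 and 0.108, and the substrates *Cdh2* and *Jag1* above 0.01, at 0.0222 and 0.0744. Same-numbered arches correlated at 0.105 on average over 5 pairs (-0.237 to 0.42), and differently numbered arches at -0.0254 over 20 pairs (-0.437 to 0.34). The ranges overlapped, so the numbers were not taken to pair the arches. Whether arches of one number share an effect was not tested. No wild-type arch carries the number 604 or 628, so the block fit compared the genotypes only within 566, 568 and 588. Fits without 1 arch each gave 2 to 4 higher and 0 lower. Leaving out wild-type 1-566 and 1-568 together, chosen after seeing the data, gave 0 and 0, when 19 genes were higher and 90 lower in all. Of the alternatives for single members, 362 kept direction and side of FDR 0.01, 25 kept direction but lost the call, 7 gained it and 5 changed sign. Only the 4 called members could lose a call, so all 25 losses are theirs. Across 10 single-arch fits and 10 other alternatives, *Adam9* and *Adamts12* each kept the call in 10 and 8. *Adamts15* kept it in 3 and 8, and *Adamts4* in 2 and 6. The sign changes were *Mmp15*, at 0.0130 with library size alone, 0.00662 with the block, and between -0.0553 and 0.0440 over single arches left out, and *Timp2*, between -0.130 and 0.00381. *Adam28* was not tested with 10 counts in 5 samples. Depth limits *Adam28* and *Mmp9*, which had at most 28 reads in an arch. The causes of these shifts were not tested.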
